A study of Mus musculus with 28 samples.

Results

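The 10 genes described here are class I genes and genes of the route by which cells display peptides on MHC class I molecules, with the regulator that switches the route on. They are the heavy chains H2-K1 and H2-D1, the further class I genes H2-Q5, H2-T10 and H2-T23, the shared light chain B2m, the peptide transporter genes Tap1 and Tap2, the loading factor Tapbp (tapasin) and the transactivator Nlrc5. They were found by gene symbol in the FPKM tables of both tissues, with liver transcripts summed by gene name, and make up 10 of 22722 named genes in either table. FPKM counts fragments relative to transcript length and to all mapped fragments of the library. The members were selected on measured values of these same libraries, and which comparison was used is not recorded. Every comparison below therefore counts as used, and its values and adjusted p are a description that lends the choice no independent support.

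All mice were male db/db mice of the C57BL/KsJ strain, which lack a working leptin receptor, and were 8 weeks old at the start. No lean group was analysed here. HIIT mice ran on a motorised treadmill for 8 weeks, 5 days a week, in 10 bouts of 4 min at 85 to 90% of maximal speed, with 2 min at 50 to 60% between bouts. Semaglutide mice received the GLP-1 receptor agonist semaglutide under the skin once daily for 8 weeks. Its dose is 0.05 mg/kg in the sample titles and 30 nmol/kg in the protocol, which are different amounts. Combined mice received both treatments, and control mice were sedentary. Polyadenylated RNA was sequenced from 3 livers and 4 kidneys per group, 28 libraries in all. Nothing in the labels says that each library is a different animal, and the p-values below therefore speak of the variation among libraries, part of which can be technical.

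A class I molecule is a heavy chain paired with beta-2 microglobulin and a short peptide. The peptide is cut in the cytosol by the proteasome, pumped into the endoplasmic reticulum by the TAP1 and TAP2 transporter, and fitted into the groove with the help of tapasin. Nlrc5 binds no DNA itself. It joins the RFX, CREB/ATF and NF-Y factors on the W/S, X1, X2 and Y boxes of class I promoters, and interferon-gamma raises both Nlrc5 and its targets. Hepatocytes and kidney tubule cells carry little class I at rest, whereas Kupffer cells, lymphocytes and other blood cells carry much.

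In the files' tissues, liver libraries summed to between 518967 and 552993 FPKM over all rows and kidney libraries to between 495273 and 662489; FPKM keeps no read depth, so the number of reads behind a value is unknown. Hepatocyte markers (Alb, Apoa1, Ttr, Cyp2e1, Cps1 and Serpina1c) summed to 18483 FPKM or more in each liver, and proximal tubule markers to 910 FPKM or more in each kidney. A total of 3 libraries stood apart. Their median correlation with the other libraries of the tissue was 0.901 for liver semaglutide 2, 0.970 for liver control 3 and 0.942 for kidney control 1, against 0.989 to 0.992 in the other livers and 0.979 to 0.991 in the other kidneys. Semaglutide 2 held 9186 FPKM of skeletal muscle markers, where the other livers held at most 0.411 FPKM. Macrophage and Kupffer cell markers summed to 933 FPKM in liver control 3 and 454 FPKM in semaglutide 2, against 66.9 to 161 FPKM in the other livers. Several results that touch these libraries, but not all, are given with and without them.

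C57BL/KsJ mice carry another haplotype of the H2 complex than C57BL/6, the strain of the GRCm39 reference named in the submitters' processing notes. How reads of the mice's own H2 alleles were shared out among the reference class I genes was not tested. H2-Q5 and H2-T10 are annotated by RefSeq as transcribed pseudogenes. In the GENCODE M21 transcripts, windows of 100 bases that also occur in another gene made up 11.6% of H2-Q5 (mostly in H2-Q7), 10.2% of H2-T10 (all in H2-T22), 7.28% of H2-T23 and 4.64% of the longer H2-D1 transcript (mostly in H2-Q1). No such window was found in H2-K1, B2m, Tap1, Tap2 or Nlrc5. The values of the first 4 genes are therefore uncertain between near-identical copies.

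Promoters are shown because class I genes are known Nlrc5 targets through short promoter boxes. RefSeq windows of the GRCm38.p6 build, from 250 bases before to 50 bases after the start site, were found for 6 of the 10 members. In H2-K1, H2-D1 and B2m capitals mark TGACG, the core of the X2 box, where ATTGG, the core of the Y box, follows it, and single copies elsewhere stay in lower case. In H2-K1 and H2-D1 they also mark a match to GAANNGAAA, a form of the core of an interferon-stimulated response element, which lies on the other strand. In Tap1 they mark TGACG and CCAAT, which is ATTGG on the other strand.
H2-K1, chr17:34000298-34000597, minus strand: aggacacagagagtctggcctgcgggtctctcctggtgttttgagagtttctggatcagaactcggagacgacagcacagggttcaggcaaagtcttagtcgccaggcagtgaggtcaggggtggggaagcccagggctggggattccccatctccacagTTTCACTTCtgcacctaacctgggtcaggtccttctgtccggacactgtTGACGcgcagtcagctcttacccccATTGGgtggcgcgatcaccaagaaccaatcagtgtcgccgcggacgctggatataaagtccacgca
H2-D1, chr17:35262844-35263143, plus strand: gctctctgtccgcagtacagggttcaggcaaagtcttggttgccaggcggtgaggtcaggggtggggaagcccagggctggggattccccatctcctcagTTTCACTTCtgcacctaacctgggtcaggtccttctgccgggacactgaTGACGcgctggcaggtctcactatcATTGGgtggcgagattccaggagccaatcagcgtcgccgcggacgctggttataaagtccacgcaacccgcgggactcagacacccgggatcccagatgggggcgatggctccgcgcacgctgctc
B2m, chr2:122147437-122147736, plus strand: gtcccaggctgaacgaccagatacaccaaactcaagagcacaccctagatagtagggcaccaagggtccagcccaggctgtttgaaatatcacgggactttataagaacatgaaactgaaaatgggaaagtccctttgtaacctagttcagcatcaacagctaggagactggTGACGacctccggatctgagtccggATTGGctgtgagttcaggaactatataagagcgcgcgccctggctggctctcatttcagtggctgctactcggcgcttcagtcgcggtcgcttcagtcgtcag
Tap1, chr17:34187306-34187605, plus strand: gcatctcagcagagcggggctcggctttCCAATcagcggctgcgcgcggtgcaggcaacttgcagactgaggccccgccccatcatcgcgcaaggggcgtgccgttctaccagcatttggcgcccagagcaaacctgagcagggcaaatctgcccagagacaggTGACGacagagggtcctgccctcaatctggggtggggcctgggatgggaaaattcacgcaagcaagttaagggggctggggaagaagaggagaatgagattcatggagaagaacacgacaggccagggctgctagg

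H2-K1, H2-D1 and B2m each had TGACG followed by ATTGG after a gap of 20 bases. That order, with a gap of 8 to 24 bases on either strand, was found in 3 of the 6 members' windows and in 0.591% of the 32851 windows of all genes. TGACG on either strand was found in 4 of the 6 and in 20.8% of all windows, ATTGG in 6 of 6 and in 37.4%, and GAANNGAAA in 2 of 6 and in 7.52%. The B2m window holds gaaactgaaa, which has an extra A before the free bases and was not searched for. The 2 of 6 is therefore a count of GAANNGAAA alone, not of all forms of the response element. The searched motifs do not overlap each other in the windows printed. In Tap1, CCAAT comes before TGACG, and TGACG and ATTGG lie on opposite strands, so they do not count as a pair at any distance. Its window shares 275 bases with that of Psmb9, the gene of an inducible proteasome subunit that is read in the opposite direction. These are matches of letters in C57BL/6 sequence, not sites shown to be bound.

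Across all livers, B2m had the highest median level of the members, 1375 FPKM, followed by H2-D1 with 217 FPKM, H2-K1 with 97.5 FPKM and H2-T23 with 68.3 FPKM. Tapbp had a median of 27.8 FPKM, Tap2 6.12, H2-T10 5.73, Tap1 4.32, Nlrc5 3.15 and H2-Q5 1.95 FPKM. B2m, H2-D1, H2-K1 and H2-T23 also led in kidney in that order, with 331 FPKM for B2m, 120 FPKM for H2-D1, 33.5 FPKM for H2-K1 and 26.1 FPKM for H2-T23. Every member's median was lower in kidney, and H2-Q5 had a median of 0.804 FPKM and Nlrc5 0.224 FPKM. The 2 tissues come from tables made separately, so levels are set side by side without a test.

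H2-Q5 was the one member that passed the threshold in any comparison of all libraries. It had 5.35, 5.74 and 4.22 FPKM in combined livers, against 1.93, 1.43 and 2.16 FPKM in control livers. HIIT livers had 1.92, 1.63 and 1.98 FPKM, and semaglutide livers 1.29, 2.45 and 1.24 FPKM. All 3 combined livers lay above all 9 other livers, while the HIIT, semaglutide and control livers overlapped. The change of combined against control livers was 1.10 ± 0.18 (SE) on the log2(FPKM + 1) scale, with a 95% interval of 0.70 to 1.50 and an adjusted p of 0.0367 (limma with Benjamini-Hochberg adjustment over 10348 genes). Without control 3 and semaglutide 2 the change was 1.19 ± 0.13 (adjusted p 0.00413, limma), but without control 2 alone it was 1.00 (adjusted p 0.171, limma), and 4 other single livers also ended the call.

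H2-D1, a classical heavy chain, had 379, 376 and 303 FPKM in combined livers, against 189, 241 and 378 FPKM in control livers. HIIT livers had 172, 188 and 199 FPKM, and semaglutide livers 216, 218 and 183 FPKM. The combined livers lay above all HIIT and all semaglutide livers, and control 3 alone reached their range. Combined livers were 0.44 ± 0.22 above control livers on the log2 scale (adjusted p 0.468, limma). Without both control 3 and semaglutide 2 the difference was 0.71 ± 0.15 (adjusted p 0.039, limma).

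H2-K1, the other classical heavy chain of these tables, had 238, 226 and 124 FPKM in combined livers, 76.6, 358 and 105 FPKM in HIIT livers, 73.2, 83.1 and 58.4 FPKM in semaglutide livers, and 61.8, 89.9 and 142 FPKM in control livers. HIIT 2 held the highest value of all livers and control 3 the highest of its group. The gene's 8 listed transcripts were not estimated alike in all livers. The leading one was the 831-base transcript in combined 1, combined 2 and HIIT 3, with 86.6, 85.5 and 82.4% of the gene's FPKM. It was the 1570-base transcript in control 2, with 53.7%, and the 1619-base transcript in the other 8 livers, with 58.5 to 95.7%. Because FPKM divides by length, a gene sum moves with the transcript its reads are given to.

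With each transcript's FPKM weighted by its GENCODE length and the gene rescaled to its own mean, H2-K1 came to 169, 162 and 153 FPKM in combined livers. HIIT livers came to 79.1, 430.4 and 77.2 FPKM, semaglutide livers to 80.7, 81.7 and 72.2 FPKM, and control livers to 76.4, 78.5 and 175 FPKM. The standard deviation of the combined livers was 8.11 FPKM on this scale and 62.6 FPKM as a plain sum. On the weighted scale the combined livers lay above every liver but HIIT 2 and control 3. The weighted difference of combined against control livers was 0.66 on the log2 scale (adjusted p 0.718, limma), against 1.02 ± 0.51 (adjusted p 0.469, limma) for the plain sum. Weighting moved no other member's value in that comparison by more than 0.05.

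**Figure D1:**
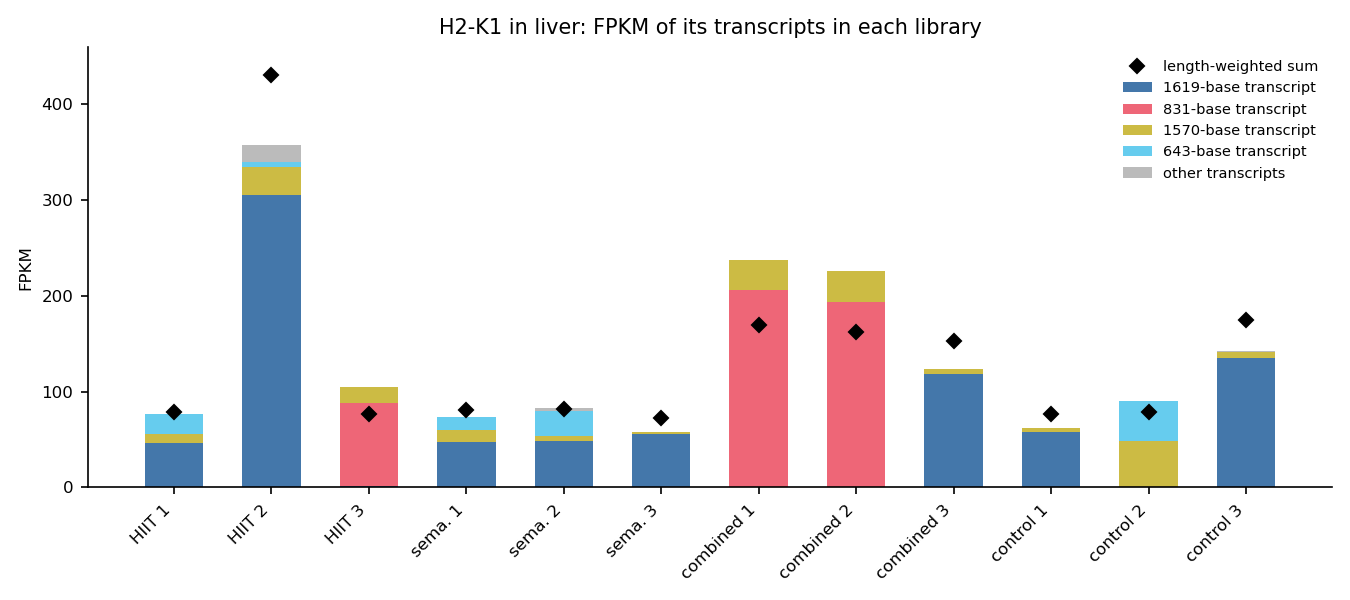
FPKM of H2-K1 transcripts (vertical axis) in the 12 liver libraries (horizontal axis), stacked by transcript and named by length, with the length-weighted gene sum as black diamonds. The 831-base transcript carries most of the stack in combined 1, combined 2 and HIIT 3, and the diamonds of the 3 combined livers lie together between 153 and 169 FPKM.

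H2-T23 encodes Qa-1, a non-classical class I molecule that shows leader peptides of other class I chains to NK and T cell receptors. It had 95.2, 106 and 82.0 FPKM in combined livers, against 70.8, 53.3 and 72.8 FPKM in control livers. The HIIT livers had 65.5, 65.9 and 72.6 FPKM and the semaglutide livers 58.8, 49.1 and 64.0 FPKM, so the combined livers lay above all 9 others. The difference from control livers was 0.52 ± 0.15 on the log2 scale (adjusted p 0.192, limma).

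H2-T10 is a class I gene of the T region. It had 8.23, 8.90 and 8.14 FPKM in combined livers, 5.10, 5.60 and 5.16 FPKM in HIIT livers, 3.88, 4.93 and 4.60 FPKM in semaglutide livers, and 5.86, 5.95 and 8.34 FPKM in control livers. HIIT and semaglutide livers all lay below all control livers, and combined livers overlapped them through control 3. The difference of semaglutide from control livers was -0.49 ± 0.13 (adjusted p 0.131, limma), and that of HIIT livers -0.28 ± 0.13 (adjusted p 0.687, limma). Combined livers were 0.58 ± 0.13 above HIIT livers (adjusted p 0.122, limma) and 0.79 ± 0.13 above semaglutide livers (adjusted p 0.181, limma), all on the log2 scale.

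B2m, the light chain of all these molecules, had 1858, 1997 and 1827 FPKM in combined livers, against 1345, 1128 and 1338 FPKM in control livers. HIIT livers had 1391, 1505 and 1359.8 FPKM, and semaglutide livers 1397, 1074 and 1357 FPKM. The combined livers lay above all 9 others, and the HIIT livers lay just above all control livers. The group means were 1894 ± 90.2 FPKM for combined, 1419 ± 76.6 for HIIT, 1276 ± 176 for semaglutide and 1270.4 ± 124 for control livers (SD, n = 3 each). Combined livers were 0.58 ± 0.16 above control livers on the log2 scale (adjusted p 0.164, limma), and 0.62 ± 0.12 (adjusted p 0.0297, limma) without control 3 and semaglutide 2.

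Tap1 and Tap2, which pair to form the peptide transporter, were highest in control 3. Tap1 had 6.93, 5.59 and 4.98 FPKM in combined livers, 4.58, 4.55 and 3.97 FPKM in HIIT livers, 2.61, 3.51 and 2.31 FPKM in semaglutide livers, and 4.09, 3.09 and 12.3 FPKM in control livers. Tap2 had 8.61, 7.75 and 6.12 FPKM in combined livers, 6.14, 4.66 and 5.96 FPKM in HIIT livers, 4.27, 6.12 and 3.91 FPKM in semaglutide livers, and 5.41, 6.53 and 15.5 FPKM in control livers. Combined livers lay above all semaglutide livers for both genes and inside the control range for both. Tap1 in combined against control livers was 0.06 ± 0.35 on the log2 scale with all libraries (-0.01 under median-ratio scaling) and 0.57 ± 0.14 without control 3 and semaglutide 2, with adjusted p of 0.984 and 0.0596 (limma).

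Tapbp, which holds empty class I molecules at the transporter, had 34.9, 32.8 and 28.7 FPKM in combined livers, 24.1, 24.1 and 25.8 FPKM in HIIT livers, 20.9, 29.6 and 19.4 FPKM in semaglutide livers, and 27.7, 27.8 and 49.2 FPKM in control livers. Every HIIT liver lay below every control liver, and semaglutide 2 lay apart from the other semaglutide livers. Combined against HIIT livers gave 0.36 ± 0.22 (adjusted p 0.557, limma) with all libraries and 0.36 ± 0.09 (adjusted p 0.0408, limma) without control 3 and semaglutide 2: the values of both groups are the same in the 2 fits, and the estimate of spread is not.

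Nlrc5 had control livers as high as its combined livers, where the class I genes and B2m averaged higher in combined livers. Tap1, Tap2 and Tapbp also had control means above their combined means, with control 3 the highest liver for each. Nlrc5 had 3.64, 4.38 and 3.72 FPKM in combined livers and 3.73, 3.44 and 4.49 FPKM in control livers. HIIT livers had 2.86, 1.81 and 2.39 FPKM, and semaglutide livers 2.76, 1.97 and 2.20 FPKM, all below every control and every combined liver. The log2 differences from control livers were -0.55 ± 0.15 for HIIT (adjusted p 0.676, limma), -0.56 ± 0.15 for semaglutide (adjusted p 0.123, limma) and 0.01 ± 0.15 for combined livers (adjusted p 0.992, limma; -0.06 under median-ratio scaling). Its values come mainly from a 7578-base and a 6945-base transcript, either of which led in some livers. Length-weighted, the group means were 3.88 ± 0.210 FPKM for combined, 2.34 ± 0.455 for HIIT, 2.29 ± 0.285 for semaglutide and 3.95 ± 0.505 for control livers (SD, n = 3 each).

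**Figure D2:**
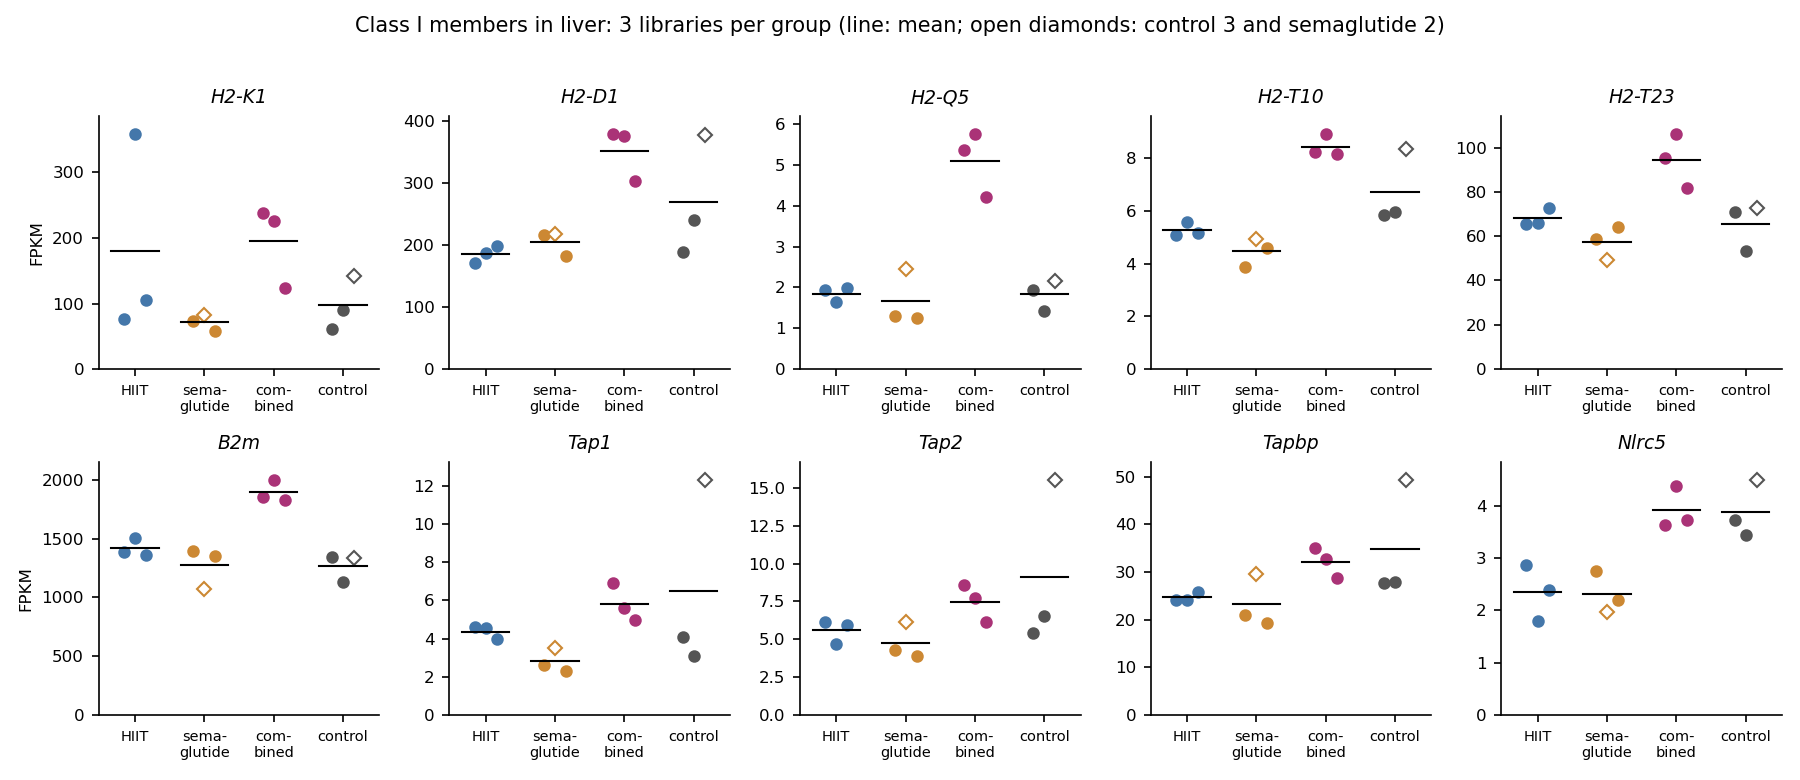
FPKM of each member (vertical axes, linear, from 0) in the 3 liver libraries of the HIIT, semaglutide, combined and control groups, with group means as lines and open diamonds for control 3 and semaglutide 2. The combined livers lie above all other livers for H2-Q5, H2-T23 and B2m, while the control livers of Nlrc5 lie beside the combined ones.

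Counted over the members, the combined livers stood higher than either single treatment. Against semaglutide livers, 10 of 10 members were higher on average, with a median log2 change of 0.74 where the median of all genes was -0.03. No member passed (limma), 8 had an unadjusted p under 0.05, and 0.0% of 10348 genes passed, with 812 under that unadjusted p. Combined livers lay wholly above semaglutide livers for 9 of 10 members, and for 8.45% of all genes tested. H2-Q5 and H2-T10 had the smallest p; H2-Q5 was 1.22 ± 0.18 above (adjusted p 0.18, limma).

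Against HIIT livers, 10 of 10 members were again higher on average, with a median log2 change of 0.44 beside 0.02 for all genes. No member passed (limma), 6 had an unadjusted p under 0.05, and 0.116% of all genes passed. That share is at the adjusted threshold. Here and below, an unadjusted count printed without the count of all genes at the same threshold has no scale beside it. Nothing is read from such a count. H2-Q5 came closest, at 1.09 ± 0.18 (adjusted p 0.0632, limma). Combined livers lay wholly above HIIT livers for 8 members, all but H2-K1 and Tap2, and for 17.3% of all genes. Both counts of higher members were 10 of 10 under median-ratio scaling and with mitochondrial transcripts removed too.

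Against control livers the combined livers were higher for 8 of 10 members (6 under median-ratio scaling, 9 with mitochondrial transcripts removed), with a median of 0.37 beside 0.05 for all genes. H2-Q5 was the 1 member that passed, where 0.309% of all genes did, and 4 had an unadjusted p under 0.05. Combined livers lay wholly above control livers for H2-Q5, H2-T23 and B2m, and for 13.8% of all genes. For the same 3 members they lay above all 9 other livers, which held for 1.8% of all genes. Since the members were chosen with these values known, the shares are printed as scale and nothing is read from them.

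With all libraries, either treatment alone averaged at or below control for most members. In HIIT against control livers 4 of 10 members were higher on average (3 under median-ratio scaling), with a median of -0.28 beside 0.05 for all genes. No member passed (limma), 1 had an unadjusted p under 0.05, and 0.0% of all genes passed, with 747 under that unadjusted p. Every HIIT liver lay below every control liver for H2-T10, Tapbp and Nlrc5, as for 5.7% of all genes, and above it for B2m, as for 11.0%. With each library left out in turn, H2-K1, H2-Q5, H2-T23 and Tap1 changed sign in HIIT against control livers. Tap1 ranged from -0.618 to 0.232. B2m stayed higher with HIIT, and H2-D1, H2-T10, Tap2, Tapbp and Nlrc5 stayed lower, Tap2 at -0.766 to -0.0837. In semaglutide against control livers 1 member, B2m, was higher on average by 0.00 (-0.12 under median-ratio scaling), with a median over members of -0.43 beside 0.09. No member passed (limma), 5 had an unadjusted p under 0.05, and 0.715% of all genes passed. Every semaglutide liver lay below every control liver for H2-T10 and Nlrc5, as for 6.77% of all genes.

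The interaction asks whether the 2 treatments together differ from the sum of each alone. It is the combined minus the HIIT minus the semaglutide plus the control mean. It was above 0 for 10 of 10 members, also under median-ratio scaling and with mitochondrial transcripts removed, with a median of 1.07 beside -0.08 for all genes. H2-T10 gave 1.07 ± 0.18 and Nlrc5 1.12 ± 0.21, each with an adjusted p of 0.396 (limma). No member passed, 8 had an unadjusted p under 0.05, and 0.00966% of all genes passed, that is 1 gene. The 8 and that share are at unlike thresholds, so the share is no scale for the 8. Averaged over both exercise states, semaglutide gave a median of 0.03 over members, with no member passing (limma), 1 under the unadjusted 0.05, and 2.01% of all genes passing; H2-Q5 was at 0.49 ± 0.13 (adjusted p 0.0807, limma). Averaged over both drug states, HIIT gave a median of 0.27, with no member passing (limma), 5 under the unadjusted 0.05, and 0.0% of all genes passing, with 741 under that unadjusted p. H2-Q5 was at 0.62 ± 0.13 (adjusted p 0.574, limma). All these comparisons share the same 12 livers, and those against control share its 3.

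**Figure D3:**
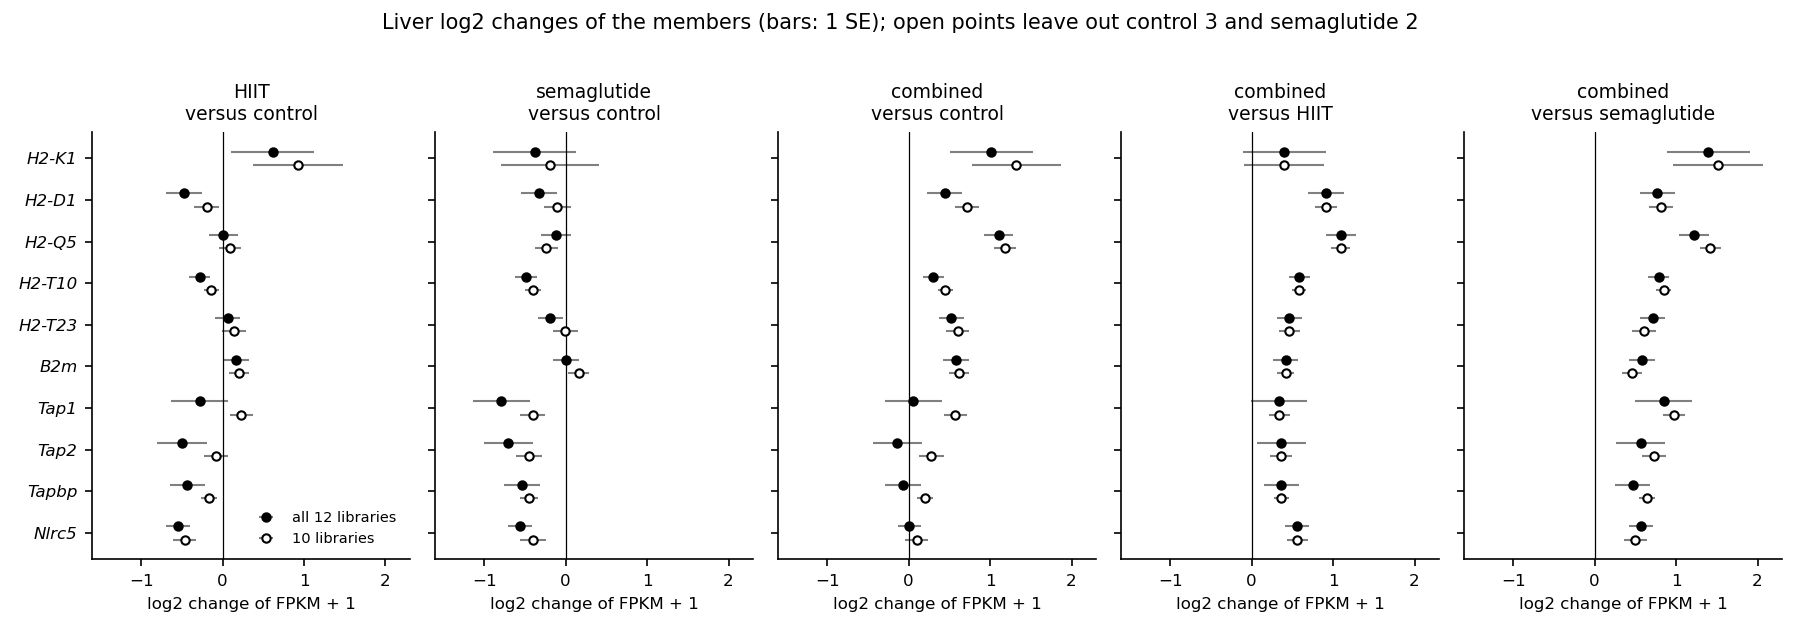
Log2 change of FPKM + 1 (horizontal axes) of each member (rows) in 5 liver comparisons, with bars of 1 SE. Filled points use all 12 libraries and open points leave out control 3 and semaglutide 2, which moves Tap1 in combined against control livers to 0.57 and leaves all members above 0 in the 3 comparisons of combined livers.

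The 2 libraries that stood apart bear on several of these values. Leaving them out keeps 2 control and 2 semaglutide livers. Control 3 was the highest control liver for every member but B2m, so leaving it out lowers the control mean of the others. Semaglutide 2 was the highest semaglutide liver for H2-Q5, H2-T10, Tap1 and Tapbp, among others. Without control 3 and semaglutide 2, 4 members passed in combined against control livers (H2-D1, H2-Q5, H2-T10 and B2m), where 2.93% of all genes did. Against HIIT livers 6 passed (H2-D1, H2-Q5, H2-T10, B2m, Tapbp and Nlrc5), beside 7.56% of all genes. Against semaglutide livers 4 passed (H2-Q5, H2-T10, Tap1 and Tapbp), beside 0.435%. For the semaglutide main effect H2-Q5 passed, beside 7.02%. All these members were higher in the combined livers or, for the main effect, with semaglutide. In semaglutide against control livers no member passed in that fit (limma), 5 had an unadjusted p under 0.05, and 0.56% of all genes passed. The median over members there was -0.32.

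The summed T and NK cell markers were higher in all combined livers than in all HIIT and semaglutide livers. The sum does not speak for each gene, as Cd3d and Cd3e were at 0 in combined 1. The 12 T and NK cell markers summed to 4.58, 4.45 and 3.52 FPKM in combined livers, against 1.01, 0.970 and 9.81 FPKM in control livers. HIIT livers had 0.966 to 1.31 FPKM and semaglutide livers 0.808 to 3.28 FPKM, the highest being semaglutide 2. Ccl5, a chemokine of these cells, made up much of the sum, with 2.79, 2.31 and 1.58 FPKM in combined livers and 0.413, 0.297 and 3.74 FPKM in control livers. Of the defining T cell genes, Cd3d was at 0 in combined 1 and at most 0.109 FPKM in any liver, and Cd3e was at 0, 0.0716 and 0.161 FPKM in combined livers and between 0 and 0.472 FPKM in the others. Macrophage and Kupffer cell markers summed to 94.2 to 161 FPKM in combined livers, inside the range of the control livers (79.1 to 933 FPKM). Endothelial markers summed to 44.8 to 56.0 FPKM in combined, 35.3 to 43.9 in HIIT, 38.4 to 80.5 in semaglutide and 30.3 to 42.5 FPKM in control livers. Fibroblast markers summed to 94.2 to 111 FPKM in combined, 69.0 to 87.7 in HIIT, 67.3 to 559 in semaglutide and 33.3 to 84.0 FPKM in control livers. For both lists every combined liver thus lay above every HIIT and control liver, and the highest value belonged to semaglutide 2. Hepatocyte markers summed to 39398 to 43582 FPKM in combined, 42708 to 44320 in HIIT, 20794 to 37718 in semaglutide and 18483 to 36332 FPKM in control livers, so combined livers also lay above all semaglutide and control livers for these. The part of these cells in the members' values was not tested. In whole tissue, fewer cells of a type and less RNA per cell cannot be told apart.

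Related gene lists, also drawn up with earlier results of these data known, were read in the same fits. Of 21 further class I heavy chains, 9 were tested. All 9 were higher on average in combined than in control livers (all 9 under both scalings too), with a median of 0.31. None passed (limma), and 3 had an unadjusted p under 0.05. H2-Q7, a Qa-2 gene, came closest, with 7.12 ± 1.63 FPKM in combined, 2.56 ± 0.400 in HIIT, 2.14 ± 0.351 in semaglutide and 3.15 ± 1.66 FPKM in control livers (SD, n = 3 each). Its change against control livers was 1.02 ± 0.26 (adjusted p 0.143, limma), and 1.32 ± 0.20 (adjusted p 0.0118, limma) without control 3 and semaglutide 2, where H2-Q4 and H2-Q6 passed as well. Among 7 class I-like molecules, 6 were tested and none passed against control (limma), with at most 3 under that unadjusted p. Fcgrt, the neonatal Fc receptor chain that also pairs with B2m, was at 0.34 ± 0.10 in combined against control livers (adjusted p 0.195, limma).

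With all libraries, the inducible proteasome genes, like Nlrc5, had control means near their combined means. They are Psmb8, Psmb9 and Psmb10, whose products replace catalytic subunits of the proteasome, and Psme1 and Psme2 of its activator. All 5 were lower on average than control in HIIT livers (median -0.55) and in semaglutide livers (median -0.92), also under both scalings, while the combined median was -0.03 (0.05 with mitochondrial transcripts removed). None passed (limma), although 4 had an unadjusted p under 0.05 with HIIT and 4 with semaglutide, and 1 passed with semaglutide under median-ratio scaling. Psmb10 came closest, at -0.96 ± 0.19 in semaglutide against control livers (adjusted p 0.0571, limma). Psmb9, named for the promoter it shares with Tap1 and after its values were seen, averaged 12.3 ± 1.13 FPKM in combined, 7.91 ± 1.30 in HIIT, 4.59 ± 0.749 in semaglutide and 13.6 ± 7.38 FPKM in control livers (SD, n = 3 each). Without control 3 and semaglutide 2, Psmb9 and Psmb10 were higher in combined than in semaglutide livers, by 1.34 ± 0.15 and 0.84 ± 0.11 (adjusted p 0.0117 and 0.0159, limma). In that fit both passed in semaglutide against control livers, at -0.98 ± 0.16 and -0.82 ± 0.12 (adjusted p 0.0355 and 0.0242, limma). The 3 constitutive subunits they replace had a median of 0.01 in that comparison (-0.11 under median-ratio scaling), and none passed; Psmb6 had the smallest p, at -0.18 ± 0.11 (adjusted p 0.441, limma).

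Peptide trimming and loading helpers were mostly at lower averages in combined livers. Of 6 genes (Erap1, Lnpep, Tapbpl, Calr, Canx and Pdia3), 5 were lower on average in combined than in control livers (6 under median-ratio scaling), with a median of -0.33. None passed in that comparison (limma), and 4 had an unadjusted p under 0.05. Without control 3 and semaglutide 2, Calr and Canx, chaperones that bind new glycoproteins, and Pdia3, the disulfide isomerase of the loading complex, were lower in combined than in HIIT livers, at -0.53 ± 0.13, -0.50 ± 0.10 and -0.44 ± 0.11 (adjusted p 0.0371, 0.0217 and 0.0456, limma). Tapbpl, a tapasin relative that edits peptides, was at -0.62 ± 0.14 in semaglutide against control livers (adjusted p 0.0771, limma). The DNA-binding partners of Nlrc5 and the class II transactivator made a list of 9, of which 8 were tested, with median changes of 0.10, 0.25 and 0.09 in HIIT, semaglutide and combined against control livers; none passed in these comparisons (limma), and at most 3 were under the unadjusted 0.05 in each. Rfx5, which holds the X box, was at 0.54 ± 0.15 in combined against control livers (adjusted p 0.161, limma). Ciita, the class II counterpart of Nlrc5, averaged 0.0985 to 0.214 FPKM over the 4 groups and was not tested.

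Of 17 genes of interferon signalling, 15 were tested and none passed in the 3 comparisons with control (limma), with at most 3 under the unadjusted 0.05 in each. Irf1, which interferon-gamma induces and which binds class I promoters, was at -0.56 ± 0.15 in semaglutide against control livers (adjusted p 0.137, limma). Among 14 antiviral interferon-stimulated genes, 10 were tested and 2 passed against control, both lower in semaglutide than in control livers. Dhx58, a regulator of RNA sensing, fell by 0.73 ± 0.11 and Ifih1, the RNA sensor MDA5, fell by 0.66 ± 0.11, each with an adjusted p of 0.0265 (limma). Both also fell with semaglutide averaged over both exercise states, Dhx58 by 0.55 ± 0.08 (adjusted p 0.0104, limma) and Ifih1 by 0.40 ± 0.08 (adjusted p 0.0246, limma). Without control 3 and semaglutide 2, Ifih1 and Xaf1 passed against control and Dhx58 did not. None of 5 NF-kB factors passed in the 3 comparisons with control (limma), and 0 were under the unadjusted 0.05; Rela had the smallest p, at -0.18 ± 0.14 in HIIT against control livers (adjusted p 0.801, limma).

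The 6 class II genes, which sit in antigen-presenting cells, were all higher on average in combined than in control livers, with a median of 0.66, also under both scalings. None passed in that comparison (limma), 0 had an unadjusted p under 0.05, and H2-Eb1 came closest, at 0.69 ± 0.67 (adjusted p 0.762, limma). Without control 3 and semaglutide 2 the median was 1.39, and H2-Aa, H2-Ab1 and H2-DMa passed, as did Ifngr1, a chain of the interferon-gamma receptor, and Relb, an NF-kB subunit. In the same fit H2-Aa, H2-Ab1, H2-Eb1 and Cd74 were also higher in combined than in HIIT livers, beside H2-Q4, H2-Q6, H2-Q7, Cd1d1, Psmb8, Psmb9, Psme1, Stat2, Irf8, Ifngr1, Relb and Zbp1 of the other lists. Against semaglutide livers H2-Aa, H2-Ab1, H2-Q4, H2-Q6, H2-Q7, H2-T22, Psmb8, Psmb9, Psmb10 and Xaf1 were higher. All these genes had an adjusted p under 0.05 (limma). The part of class II cells in the members' values was not tested.

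**Figure D4:**
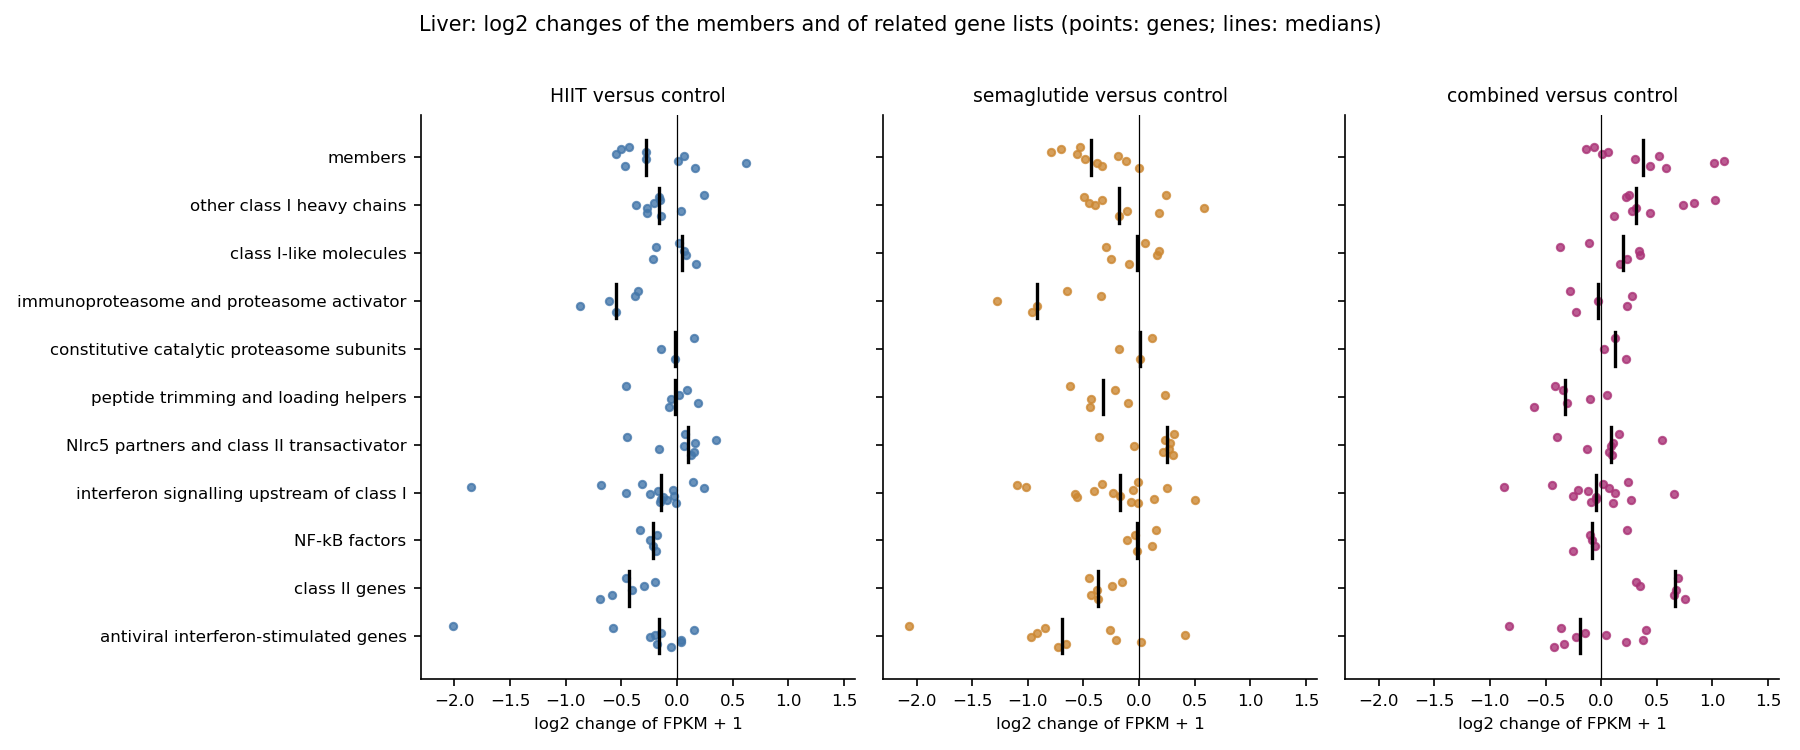
Log2 change of FPKM + 1 (horizontal axes) against control livers for each tested gene (points) of the members and of 10 related lists (rows), with list medians as lines, in HIIT, semaglutide and combined livers. The inducible proteasome genes lie left of 0 in HIIT and semaglutide livers, and class II genes and further heavy chains lie right of 0 in combined livers.

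In kidney, control 1 held the highest value of every member among the 16 kidneys: 802 FPKM of H2-K1, 809 of H2-D1, 19.6 of H2-Q5, 6.68 of H2-T10, 94.5 of H2-T23, 2172 of B2m, 34.2 of Tap1, 28 of Tap2, 77.3 of Tapbp and 5.48 FPKM of Nlrc5. It exceeded the next highest kidney 2.31-fold for H2-T23 at the least and 10.5-fold for Tap1 at the most. The same library held 3592 FPKM of macrophage markers, 1438 FPKM of B and plasma cell markers and 130 FPKM of T and NK cell markers. The other 15 kidneys held at most 114, 4.78 and 4.53 FPKM of these. The part of these cells in its class I values was not tested.

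H2-K1 had 33.7, 42.0, 39.1 and 107 FPKM in HIIT kidneys, 38.7, 30.3, 23.3 and 28.3 FPKM in semaglutide kidneys, and 30.1, 28.7, 40.4 and 43.4 FPKM in combined kidneys, against 29.2, 33.4 and 23.3 FPKM in control kidneys 2 to 4. HIIT 4 stood above the rest for this gene alone among the heavy chains. B2m had 335, 305, 425 and 405 FPKM in HIIT kidneys, 436, 327, 303 and 321 FPKM in semaglutide kidneys, and 291, 341, 387 and 302 FPKM in combined kidneys, against 336, 288 and 256 FPKM in control kidneys 2 to 4. HIIT kidneys lay just above control kidneys 2 to 4 for H2-K1, 33.7 against 33.4 FPKM at the nearest. The other groups overlapped control kidneys 2 to 4, as all groups did for B2m. The share of all genes split in this way from control kidneys 2 to 4 was not counted, so nothing is read from it. Against all control kidneys, HIIT kidneys lay wholly above for no member tested, and for 0.424% of all genes.

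H2-Q5, the member that passed in liver, had 0.530, 0.866, 1.79 and 0.698 FPKM in combined kidneys, against 1.83, 0.742 and 0.125 FPKM in control kidneys 2 to 4. HIIT kidneys had 0.742 to 1.65 FPKM and semaglutide kidneys 0.389 to 2.35 FPKM. The combined kidneys thus lay inside the control range. H2-T23 had 27.9, 29.6, 40.9 and 24.4 FPKM in combined kidneys, 19.1, 19.4, 26.7 and 21.2 FPKM in HIIT kidneys, 33.1, 32.4, 18.3 and 23.7 FPKM in semaglutide kidneys, and 26.3, 25.9 and 23.4 FPKM in control kidneys 2 to 4. Nlrc5 reached 1 FPKM in control 1 alone and so was left out of the kidney tests. It had 0.222, 0.734, 0.816 and 0.580 FPKM in HIIT kidneys, 0.449, 0.193, 0.111 and 0.0916 FPKM in semaglutide kidneys, 0.150, 0.200, 0.365 and 0.111 FPKM in combined kidneys, and 0.511, 0.227 and 0.141 FPKM in control kidneys 2 to 4.

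**Figure D5:**
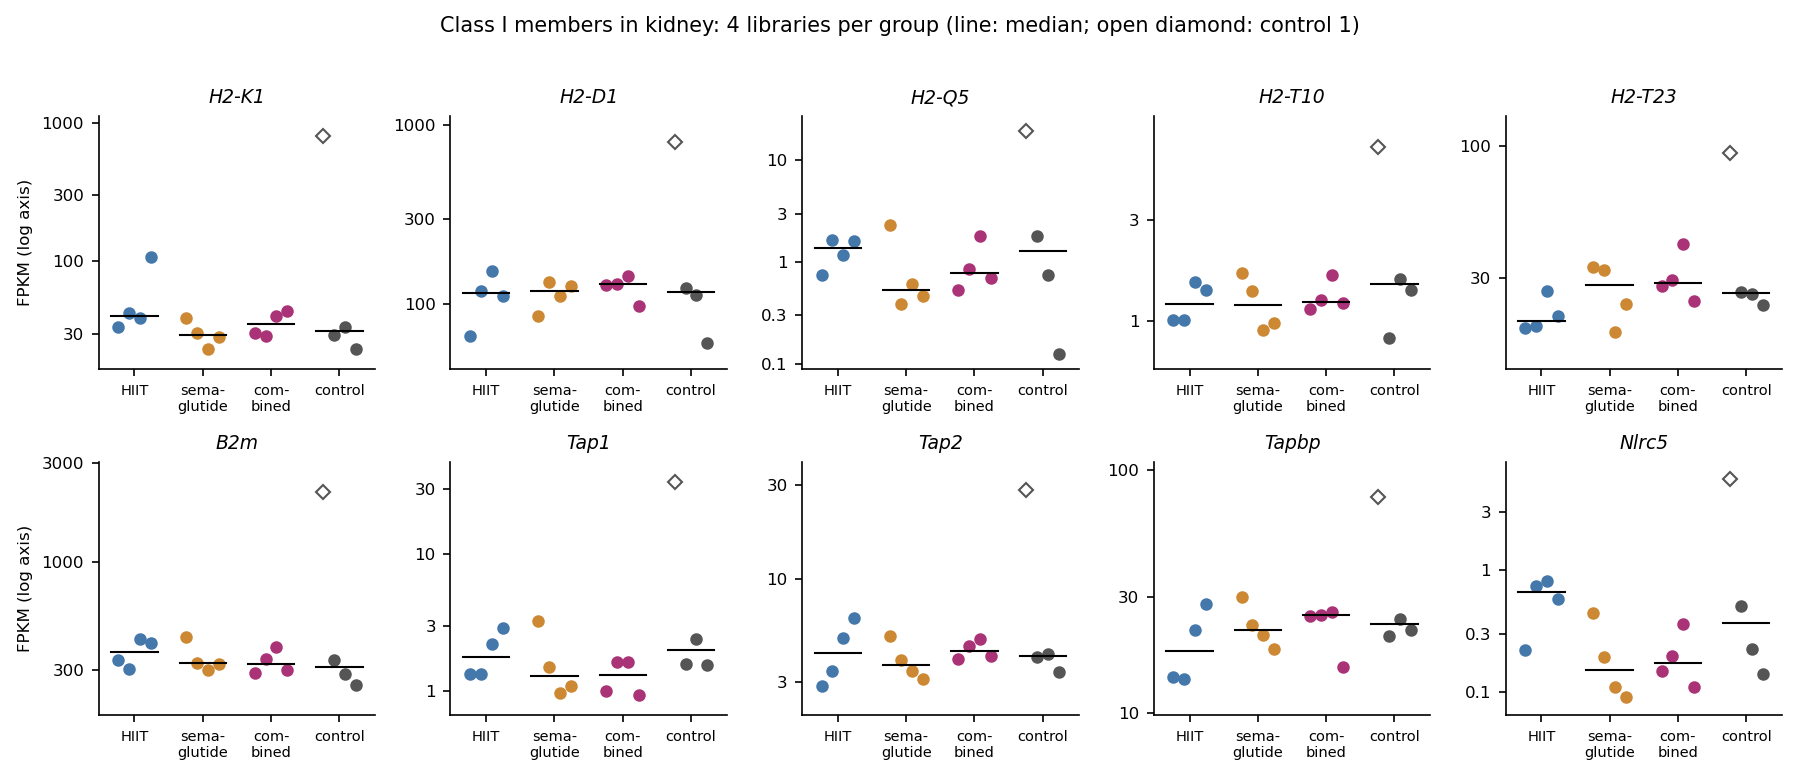
FPKM of each member (vertical axes, log scale) in the 4 kidney libraries of the HIIT, semaglutide, combined and control groups, with group medians as lines. Control 1, the open diamond, lies above the 15 other kidneys in every panel, from 2.31-fold for H2-T23 to 10.5-fold for Tap1 over the next highest.

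No member passed in any kidney comparison (limma; 9 tested, 0 with an unadjusted p under 0.05 in each of the 8). The share of all 11551 genes that passed was 0.0% for HIIT against control, 0.00866% for semaglutide against control, 0.0% for combined against control, 0.00866% for combined against HIIT, 0.00866% for combined against semaglutide, 0.0% for the interaction, 0.0173% for semaglutide averaged over exercise and 0.0% for HIIT averaged over drug. With all libraries, all 9 members were lower on average than control in each treatment, also under both scalings, with medians of -0.53 for HIIT, -0.52 for semaglutide and -0.49 for combined kidneys. The medians of all genes were -0.26, -0.14 and -0.09. Median-ratio scaling gave -0.01 in place of -0.26 for the all-gene median of HIIT against control kidneys, and -0.28 for the members. Without control 1 the members' medians were 0.12, 0.04 and 0.15, with 6, 7 and 8 of 9 members higher. In no member did all treated kidneys of a group lie below all control kidneys, which held for 2.77%, 3.09% and 2.49% of all genes in HIIT, semaglutide and combined kidneys.

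The smallest p among members belonged to H2-T23 at -0.69 ± 0.34 and Tapbp at -0.69 ± 0.34 in HIIT kidneys (adjusted p 0.378 each, limma); under median-ratio scaling both were at -0.39. Mitochondrial transcripts made up 56.7%, 55.7%, 36.5% and 29.1% of the FPKM of the HIIT kidneys, against 20.5% in control 1 and 34.7% to 37.8% in the other control kidneys. With mitochondrial transcripts removed, both members were at -0.35 (adjusted p 0.703 for H2-T23 and 0.655 for Tapbp, limma). In semaglutide kidneys it belonged to Tap1 at -1.04 ± 0.59 and Tap2 at -0.65 ± 0.43 (adjusted p 0.913 each, limma), and in combined kidneys to Tap1 at -1.22 ± 0.59 and H2-T10 at -0.40 ± 0.31 (adjusted p 0.994 each, limma). Without control 1, H2-T23 and Tapbp were at -0.22 ± 0.22 and -0.25 ± 0.25, and Tap1 in combined kidneys at -0.31 ± 0.25. Of the related lists, no gene passed in any of the 3 comparisons with control kidneys (limma), and at most 2 of any list had an unadjusted p under 0.05. The smallest p of each list belonged to Nfkbia, Calr, Mr1, H2-T22, Jak2, Psme2, Rfx5, Ifit2, H2-Eb1 and Psmb7, with adjusted p of 0.378 to 0.994. The class II genes were lower than control in all 3 treatments with all libraries (medians -0.42, -0.90 and -1.15; with mitochondrial transcripts removed, 2 of 6 were higher with HIIT) and had medians of 0.72, 0.28 and 0.02 without control 1.

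The difference between the tissues was tested on 9505 genes measured in both. No member passed for HIIT, semaglutide or combined against control, where 0.021%, 0.0% and 0.0316% of all genes did. At the unadjusted 0.05 there were 0, 0 and 4 members, with no count of all genes beside them. The combined change of H2-Q5 was 1.87 ± 0.63 larger in liver than in kidney (adjusted p 0.693) and that of B2m 1.13 ± 0.49 larger (adjusted p 0.955). Without the 3 libraries that stood apart these differences were 1.07 and 0.45. For HIIT, H2-T23 differed by 0.75 ± 0.37 (adjusted p 0.359; 0.41 under median-ratio scaling) and B2m by 0.57 ± 0.49 (adjusted p 0.519). For semaglutide, H2-Q5 differed by 0.73 ± 0.63 (adjusted p 0.644) and B2m by 0.49 ± 0.49 (adjusted p 0.672).

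Genes whose levels ran most like Nlrc5 were ranked by Spearman correlation of log2(FPKM + 1), as a description over libraries that share their table and scaling. Over the 12 livers they were Psmb8, Meiob and Fyb2 (0.937 each), Stat2 (0.930) and Psme1 (0.923), with Pearson r of 0.899, 0.849, 0.780, 0.963 and 0.880. Without semaglutide 2 and HIIT 2, the livers farthest from the median of Nlrc5, the Pearson r were 0.932, 0.901, 0.700, 0.958 and 0.801. Psmb8 is an inducible proteasome subunit, Stat2 a carrier of type I interferon signals and Psme1 a subunit of the proteasome activator. Over the 16 kidneys they were H2-Aa (0.871), H2-Q6 (0.859), Ifi47 (0.850), Ccl5 (0.847) and Psmb9 (0.844), with Pearson r of 0.936 to 0.972 that came to 0.690 to 0.762 without control 1 and HIIT 3. Nlrc5 itself lay at 0.0916 to 0.816 FPKM in every kidney but control 1, so its kidney ranks rest on values below the filter. In the livers the members themselves had Spearman values with Nlrc5 between 0.175 (H2-K1 and B2m) and 0.776 (H2-T10). In the kidneys these values lay between 0.306 (H2-T23) and 0.824 (H2-Q5).

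Among the members, the 45 pairs had Spearman values of 0.0350 to 0.881 in liver, with a median of 0.650, and of 0.229 to 0.824 in kidney, with a median of 0.529. Without the libraries that stood apart the medians were 0.685 in liver and 0.429 in kidney. These values describe levels that rise and fall together over the same libraries and carry no test.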

How the data were processed

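The authors deposited 1 table per tissue with values in FPKM, 66878 transcript rows for liver and 23650 gene rows for kidney; the tools listed in the submitters' processing notes, with no role or order, are STAR 2.7.9a, StringTie 2.1.4, featureCounts 2.0.1, Trimmomatic 0.36, FastQC and CASAVA, and the build is GRCm39. The sources used here do not say whether counting used strand or how libraries were scaled to each other. Rows without a gene name held 0.17 to 0.27% of the FPKM in liver and 3.13 to 11.53% in kidney and were left out.

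Liver transcripts were summed by gene name. Genes of at least 1 FPKM in at least 3 livers (10348 genes) or 4 kidneys (11551 genes) were fitted on log2(FPKM + 1) with limma 3.58.1 (R 4.3.3; trended variance), 1 fit per tissue with 4 group means, and Benjamini-Hochberg adjustment over all tested genes; the threshold was 0.05. A fold change on this scale understates the change of low genes. Differences between tissues were tested with Satterthwaite degrees of freedom, taking the 2 fits as independent. The fit was tested on simulated data.

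All members are given by library; changes are given for members that passed and otherwise for the 2 with the smallest p in a comparison, and for other members where an excluded library or transcript sum bears on them. From each related list, genes that passed or the one with the smallest p are named. The members and lists were chosen with earlier results of these data known. Libraries were not paired by replicate number in the main fit. Alternatives were median-ratio scaling, removal of mitochondrial transcripts, no filter on low values, a pseudocount of 0.1, a replicate block, only the groups compared, each library left out, the libraries that stood apart left out and, added after seeing the data, liver transcripts weighted by GENCODE M21 length (65246 of 66408 named transcripts matched). Promoters and gene types are from RefSeq GRCm38.p6.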

Additional observations from a re-analysis of the deposited data

Results flagged for a closer look

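A library was called far from its group where its gap to the nearest other library, as a share of the group's range on the log2(FPKM + 1) scale, passed 0.829, the value for 4 samples at 95%. In independent groups chance alone gives about 1 such case in 20. A total of 9 of the 40 groups of 4 kidneys had one. The 40 groups are the 10 members in the same 16 kidneys and are not independent, so the 9 cannot be set against that rate. The share of all genes flagged by this rule was not counted. In 7 of the 9 it was control 1, with a share of 0.901 for H2-K1, 0.916 for H2-T23, 0.873 for B2m, 0.891 for Tap1, 0.911 for Tap2, 0.879 for Tapbp and 0.838 for Nlrc5. The others were semaglutide 1 for H2-Q5 (0.834, at 2.35 FPKM) and combined 4 for Tapbp (0.922, at 15.5 FPKM, the lowest of its group).

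In liver, H2-T10 and Nlrc5 went opposite ways by treatment context in every library: semaglutide livers lay below control livers, and combined livers lay above HIIT livers. The same held for HIIT livers against control and combined livers against semaglutide livers. Taken singly, these separations held for 6.77% of all genes (semaglutide below control) and 17.3% (combined above HIIT). They held for 5.7% (HIIT below control) and 8.45% (combined above semaglutide). The share of all genes that meet both conditions of a pair was not counted, and nothing is read from it. The gap between the opposed log2 changes was 1.07 for H2-T10 and 1.12 for Nlrc5, and is the interaction given above, which did not pass (adjusted p 0.396 each, limma).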

How the results depend on the processing

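H2-Q5 in combined against control livers, the one member called with all libraries, was not called (0 members) with a pseudocount of 0.1 (1.43, adjusted p 0.0546), with no filter (adjusted p 0.0871), with the replicate block (adjusted p 0.111) or with only the groups compared; without the libraries that stood apart 4 members were called. Leaving out each library in turn gave 0 to 1 members there and 0 to 1 in combined against semaglutide livers. Combined against HIIT livers had 0 members called, but 1 with median-ratio scaling, 6 without the libraries that stood apart and 4 with only the groups compared. Combined against semaglutide livers had 1 with median-ratio scaling and 4 without the libraries that stood apart, and the semaglutide main effect had 1 under each of these. In the other comparisons the count of members was 0 under every alternative run. The cause was not tested. Over the alternatives other than single libraries left out, the genes called ranged over 0 to 303 in combined against control livers (32 as reported), 5 to 782 against HIIT (12), 0 to 45 against semaglutide (0), 0 to 74 in semaglutide against control (74) and 95 to 726 for the semaglutide main effect (208).

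Of the same-number pairs, 2 of 18 in liver and 9 of 24 in kidney correlated above 0.1. Only 0 of 12 livers and 2 of 16 kidneys correlated best with their own number. The median correlation was -0.0851 for same-number and 0.0276 for other pairs in liver, and 0.0793 and -0.0177 in kidney. The main fit did not pair the libraries, and such weak correlations cannot exclude a pairing. The replicate block left 3 genes called in combined against control livers and changed no other count of members.

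Signs turned without kidney control 1. With each library left out in turn, H2-K1 in HIIT kidneys ranged from -0.9 to 0.782 and H2-D1 in combined kidneys from -0.851 to 0.392. Tap2 in semaglutide kidneys ranged from -0.910 to 0.000743 and H2-T10 in combined kidneys from -0.650 to 0.0390. H2-T10, H2-T23 and Tapbp stayed lower in HIIT kidneys, H2-T10 and Tap1 in semaglutide kidneys, and Tap1 in combined kidneys. For liver against kidney, B2m with HIIT ranged from -0.157 to 0.869 (-0.117 without all 3 libraries that stood apart), H2-Q5 with semaglutide from -0.157 to 1.24 (-0.276) and B2m with semaglutide from -0.232 to 0.794 (-0.0725). FPKM keeps no depth, so counting error is unknown, and 3 or 4 libraries per group limit what could pass.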
